A study of Eragrostis tef with 16 samples.

Results

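Tef (Eragrostis tef) is a cereal of the Horn of Africa whose chromosomes come in 2 sets, called subgenomes A and B. The balance between these subgenomes was described here from all genes whose identifier places them on chromosomes 1 to 10 of set A or set B. Of the 68255 genes in the count table, 66287 met this rule, 34032 in subgenome A and 32255 in subgenome B. The other 1968 genes lie on unplaced scaffolds and belong to neither. Subgenome A therefore holds 51.3% of the placed genes.

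Plants were grown in hydroponic solution, and roots and shoots were sequenced separately as RNA-seq libraries. The groups were low calcium roots (LCR) and low calcium shoots (LCS), grown with 0.01 mM Ca2+, and control roots (ConR) and control shoots (ConS), grown with 1 mM Ca2+. Each group had 4 libraries, named by their S numbers (LCR S1 to S4, LCS S5 to S8, ConR S9 to S12, ConS S13 to S16), and the study describes them as independent biological replicates. All groups share 1 tef accession, and whole roots or shoots hold many cell types.

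An allotetraploid arises when the genomes of different parent species come together in 1 nucleus, so most genes are present as related copies, called homeologs, on paired chromosomes of the subgenomes. In some allopolyploids the genes of 1 parent are expressed at higher levels or kept more often, which is known as subgenome dominance, while in others the subgenomes stay near balance. The balance can be read from RNA-seq only as far as reads can be assigned to 1 of the copies.

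The total count ran from 6276818 to 17659238 reads per library, and 0.391% to 0.703% of the reads fell on unplaced genes. No pair of libraries held identical counts. In a principal component analysis of subgenome A genes alone, the first component took 72.4% of the variance and separated all 8 root libraries from all 8 shoot libraries. Subgenome B genes alone gave 72.3% and the same separation. Marker genes of roots and shoots were not checked, because no gene annotation was used.

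Subgenomes A and B took nearly equal shares of the reads in every library, with A slightly above B in roots and slightly below it in shoots. The A share is the reads on A genes as a percent of the reads on A and B genes, a ratio within a library that needs no scaling between libraries. In LCR the A share was 50.54%, 50.46%, 50.23% and 50.25% (S1 to S4), against 50.56%, 50.42%, 50.93% and 50.38% in ConR (S9 to S12). In LCS it was 49.66%, 49.90%, 49.41% and 49.79% (S5 to S8), against 49.53%, 49.38%, 49.45% and 49.17% in ConS (S13 to S16). All 8 root libraries thus lay above 50% and all 8 shoot libraries below it, while low calcium and control libraries overlapped within each tissue. The widest 95% Wilson interval spanned 50.50% to 50.57% (LCR S1), and these intervals cover counting error only, since reads without molecular identifiers are not independent molecules. All 16 libraries lay below the A share of genes, and reads per gene were lower for A than for B in 16 of 16 libraries. The lengths of the genes were not known, so the levels of A and B cannot be compared per length. Longer genes also weigh more in sums of reads. The size and sign of a difference in A share may thus depend on length, and this was not tested.

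Over all genes the A share differed more between tissues than between calcium levels. Without the 100 most abundant genes of each group this order did not hold, as LCR minus LCS (0.30 points) was smaller than LCS minus ConS (0.39 points). Without the 10 most abundant genes of each chromosome it held, with 0.55 (LCR minus LCS) and 0.93 points (ConR minus ConS) against 0.47 points (LCS minus ConS). The A share averaged 50.37% ± 0.15 in LCR and 49.69% ± 0.21 in LCS (SD, n = 4 each), a difference of 0.68 percentage points without overlap (two-sided exact permutation test, p = 0.0286, adjusted p = 0.0571 over the 4 comparisons). With 4 libraries a group no p can be smaller than this 0.0286. It averaged 50.57% ± 0.25 in ConR and 49.38% ± 0.16 in ConS (SD, n = 4 each), a difference of 1.19 points, also without overlap (exact permutation p = 0.0286, adjusted p = 0.0571). Low calcium differed from control by -0.20 points in roots (LCR minus ConR, exact permutation p = 0.229, adjusted p = 0.229; -0.083 points without ConR S11) and by 0.31 points in shoots (LCS minus ConS, exact permutation p = 0.0857, adjusted p = 0.114). None of the 4 differences passed the threshold of 0.05 after adjustment. The low calcium effect in shoots minus that in roots was 0.51 points (permutation of the calcium labels within each tissue, all 4900 arrangements, exact p = 0.0188, adjusted p = 0.0282 over the 3 measures of balance tested in this way). Such a p is exact only for the case that calcium has no effect in either tissue. The effect in shoots minus that in roots was 0.28 points without the 229 most abundant genes described next (exact permutation p = 0.196). It was 0.39 points without ConR S11 (exact permutation p = 0.04).

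**Figure D1:**
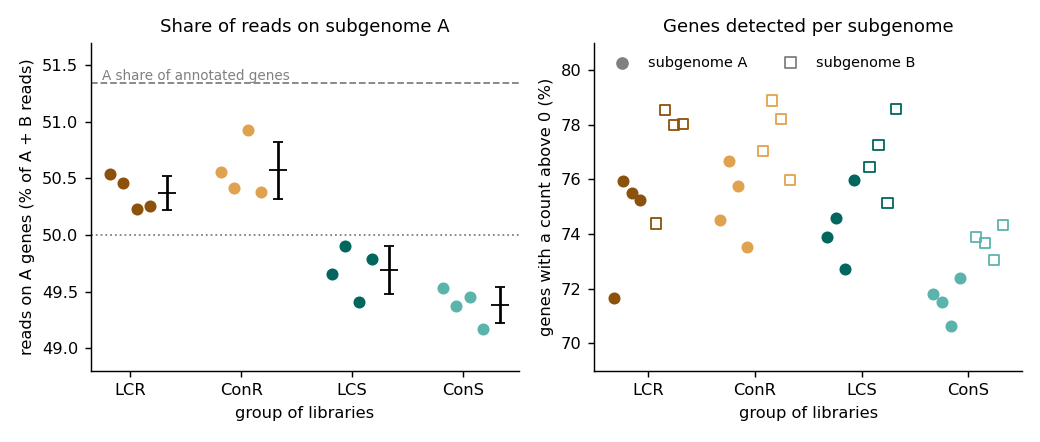
Left, reads on subgenome A genes as a percent of A and B reads in each of the 16 libraries (points) with the mean and SD of each group (bars, n = 4). The y axes do not start at 0. All root libraries lie above 50% (dotted line) and all shoot libraries below it, and every library lies below the A share of annotated genes (dashed line, 51.3%). Right, the percent of annotated genes with a count above 0, A as filled circles and B as open squares, with A below B in 16 of 16 libraries.

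A few abundant genes weighed on these sums. The 100 most abundant genes of each group formed a union of 229 genes, 116 in A, 111 in B and 2 unplaced. In ConR the most abundant 1361 A genes and 1392 B genes carried 50% of the reads of their subgenome, against 615 and 548 in ConS. In LCR these numbers were 1354 and 1335, against 905 and 827 in LCS. Without the 229 genes the A share in LCS minus ConS was 0.39 points, in LCR minus LCS 0.30 points and in ConR minus ConS 0.58 points, each with an adjusted exact permutation p of 0.0381. Both tissue differences were smaller than over all genes, where they already had the smallest p. Their adjusted p fell from 0.0571 because LCS vs ConS now reached the smallest p too. The difference of LCR minus ConR turned to 0.11 points under this setting (adjusted exact permutation p = 0.171).

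A measure in which each tested gene counts the same gave the same order of tissues. It is the mean log2 CPM (counts scaled to a common total with TMM, the trimmed-mean scaling of edgeR, and a prior count of 2) over 28213 tested A genes minus that over 27515 tested B genes. It was -0.042, -0.042, -0.037 and -0.043 in LCR, and -0.042, -0.041, -0.037 and -0.032 in ConR. It was -0.058, -0.053, -0.054 and -0.057 in LCS, and -0.060, -0.064, -0.064 and -0.058 in ConS. The mean level of A genes was thus below that of B genes in 16 of 16 libraries, by the larger amount in shoots. Low calcium shoots lay 0.0059 above control shoots, LCR 0.014 above LCS and ConR 0.024 above ConS on this log2 scale, each without overlap (exact permutation p = 0.0286, adjusted p = 0.0381). In roots the difference of LCR minus ConR was -0.0034 (exact permutation p = 0.171), and -0.0015 without ConR S12. With a prior count of 0.5 the shoot difference was 0.0020 (adjusted exact permutation p = 0.514), and no comparison passed the threshold. The tissue differences stayed close to those above, at 0.013 (LCR minus LCS) and 0.023 (ConR minus ConS), each with an adjusted exact permutation p of 0.0571. A comparison at the smallest p gets a larger adjusted p when fewer of the 4 comparisons reach it. No comparison passed either with the median log2 level in place of the mean. The differences were then 0.049 (LCS minus ConS), 0.028 (LCR minus LCS) and 0.087 (ConR minus ConS), with adjusted exact permutation p of 0.114, 0.229 and 0.114.

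A slightly smaller percent of the A genes than of the B genes was detected, although A genes were the larger number. A gene counted as detected in a library with a count above 0, and 70.6% to 76.7% of A genes and 73.1% to 78.9% of B genes met this across the 16 libraries. The number of detected A genes was 24389 to 25846 in LCR, 25023 to 26096 in ConR, 24749 to 25854 in LCS and 24041 to 24643 in ConS. That of B genes was 23994 to 25331 in LCR, 24511 to 25445 in ConR, 24234 to 25343 in LCS and 23567 to 23978 in ConS. Fewer genes of both subgenomes were thus found in every ConS library than in any LCS or ConR library. This held although every ConS library had a larger total than every LCS library. LCR S1, the library with the smallest total, lay within the ConS range for A genes. A genes made up 50.47% of the detected genes in LCR, 50.55% in ConR, 50.50% in LCS and 50.60% in ConS (group means). The differences in this share were -0.081 points for LCR minus ConR, -0.11 for LCS minus ConS, -0.027 for LCR minus LCS and -0.053 for ConR minus ConS, with adjusted exact permutation p of 0.286, 0.286, 0.457 and 0.457. Depth differed between the groups, and at least 10 counts as the threshold of detection turned all 4 differences positive.

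Over the whole series, 94.1% of A genes (32035) and 95.2% of B genes (30701) had a count in at least 1 library, and 54.7% of A genes (18612) and 57.3% of B genes (18472) had one in all 16. Of the unplaced genes, 79.3% had any count and 11.1% one in every library. Genes found in all 8 root libraries and no shoot library numbered 65 of the 34032 A genes and 43 of the 32255 B genes. Those found in all 8 shoot libraries and no root library numbered 23 in A and 31 in B. These counts are a very small part of each subgenome, and A against B was not tested for them. At the level of group means, 15% of A genes and 13% of B genes were at 0 in LCR, 14.6% and 12.5% in ConR, 15.1% and 13% in LCS, and 16.3% and 14.5% in ConS. The classes of 10 to 100 CPM held 22.7% of A genes and 23.4% of B genes in LCR, and 22.6% and 23.9% in ConS. The detected share was therefore lower for A in every group. The levels of tested genes were also slightly lower for A, not compared per length. Their median CPM in A and B was 3.251 and 3.355 in LCR, 3.055 and 3.169 in ConR, 3.617 and 3.82 in LCS, and 2.492 and 2.762 in ConS.

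Low calcium changed nearly the same percent of genes in both subgenomes. Genes were called where edgeR's quasi-likelihood test gave a false discovery rate (Benjamini-Hochberg) below 0.05, over all 56746 genes with a count in at least 4 libraries, and A and B were set side by side without a test, since genes are not replicates. In LCR vs ConR, 954 A genes (3.38% of those tested) and 854 B genes (3.1%) were called, where 3.23% of all genes tested were. Higher in LCR were 567 A genes (2.01%) and 490 B genes (1.78%), beside 1.9% of all genes tested, and lower were 387 (1.37%) and 364 (1.32%), beside 1.33%. With DESeq2's size factors in edgeR, the genes higher in LCR made up 72.8% of the A calls and 69.4% of the B calls, against 59.4% and 57.4% with TMM scaling. Without LCR S1, S2 or S4, or ConR S9, S10 or S12, the A calls numbered 263, 227, 217, 379, 356 and 289 and the B calls 245, 203, 204, 336, 319 and 268. Without ConR S11 they numbered 1827 in A and 1709 in B. With edgeR's filterByExpr, a stricter filter that kept 42124 genes, 5.75% of the A genes and 5.22% of the B genes tested were called (1213 and 1084).

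In shoots the response was broader and again alike in size. In LCS vs ConS, 7327 A genes (26.0%) and 7202 B genes (26.2%) were called, beside 25.8% of all genes tested. Higher in LCS were 4804 A genes (17.0%) and 4654 B genes (16.9%), beside 16.7%, and lower were 2523 (8.94%) and 2548 (9.26%), beside 9.04%. The median log2 fold change of the genes called higher was 2.22 in A and 2.28 in B, and that of the genes called lower -0.77 in A and -0.78 in B. Over all tested genes the median log2 fold change was 0.11 in both subgenomes. Without LCS S8 the calls numbered 4774 in A and 4652 in B, of which 3504 and 3353 were higher in LCS and 1270 and 1299 lower. Without LCS S6 the genes called lower numbered 1515 and 1559. Where a log2 fold change of 1 or more in size was also required, 4096 A genes and 3972 B genes were higher in LCS and 626 and 677 lower, so that the higher ones made up 86.7% and 85.4% of the calls, against 65.6% and 64.6% without that requirement.

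The comparison of tissues called about as many A as B genes too. In LCR vs LCS, 12084 A genes (42.8%) and 11838 B genes (43.0%) were called, beside 42.7% of all genes tested. Higher in LCR were 5702 A genes (20.2%) and 5544 B genes (20.1%), beside 20%, and lower were 6382 (22.6%) and 6294 (22.9%), beside 22.7%. In ConR vs ConS, 14891 A genes (52.8%) and 14482 B genes (52.6%) were called, beside 52.4%. Higher in ConR were 8225 A genes (29.2%) and 7957 B genes (28.9%), beside 28.7%, and lower were 6666 (23.6%) and 6525 (23.7%), beside 23.7%. Of 1018 unplaced genes tested, 29.1% were called for LCR vs LCS and 36.0% for ConR vs ConS. These values are given without a test, beside the lower share of unplaced genes with a count in every library given above.

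The calcium response differed between shoots and roots in 1680 A genes (5.95%) and 1663 B genes (6.04%), beside 5.91% of all genes tested (interaction, the shoot contrast minus the root contrast). The change under low calcium was more positive in shoots for 1483 A genes (5.26%) and 1461 B genes (5.31%), beside 5.2%, and more negative for 197 (0.698%) and 202 (0.734%), beside 0.71%. Of the genes higher in LCR, 238 A genes (42%) and 235 B genes (48%) were also higher in LCS, which is 4.95% and 5.05% of the genes higher in LCS. Higher in both tissues were thus 0.844% of the A genes and 0.854% of the B genes tested, beside 0.844% of all genes tested. Lower in both were 132 A genes (0.468%) and 118 B genes (0.429%), beside 0.442%, and 40 (0.142%) and 33 (0.12%) moved in opposite directions, beside 0.129%. These counts rest on the root calls. Without LCR S1, S2 or S4, or ConR S9, S10 or S12, the genes higher in both numbered 56 to 83 in A and 46 to 77 in B and those lower in both 17 to 40 and 22 to 43. Without ConR S11, 471 A genes and 461 B genes were higher in both and 313 and 314 lower. Without LCS S7, 219 A genes and 196 B genes were lower in both, and without ConS S13, 84 in each subgenome. Over the 16 omissions the opposite ones ranged from 11 to 71 in A and from 12 to 63 in B.

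Of the A and B calls, A genes made up 52.8% for LCR vs ConR, beside 50.6% of the tested genes, and 50.4% for LCS vs ConS. Their part was 50.5% for LCR vs LCS, 50.7% for ConR vs ConS and 50.3% for the interaction. The percent of A genes called over that of B genes was 1.09 in LCR vs ConR and stayed from 1.03 to 1.12 over the 24 other settings, scalings, tools and omissions of 1 library. In LCS vs ConS the ratio was 0.992, with a range of 0.977 to 1.01. The spread among replicates was also alike: the biological coefficient of variation of A and B genes was 17.7% and 17.8% in LCR, 30.2% and 30.5% in ConR, 34.2% and 34.1% in LCS, and 29.6% and 29.4% in ConS.

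Behind the near balance of the whole subgenomes, single chromosome pairs departed from it in both directions. The A share of a pair is the reads on its A chromosome as a percent of the reads on both, and over the 16 libraries it spanned 46.3% to 58.9%. Pairs hold 4401 (pair 6) to 9964 (pair 1) genes, and A holds 50.3% (pair 3) to 54.7% (pair 6) of the genes of a pair. In pairs 1, 3, 7, 8, 9 and 10 the A share of reads lay below the A share of genes in all 16 libraries. In pairs 2 and 6 it lay above in 8 libraries, in pair 4 in 5 and in pair 5 in 1.

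**Figure D2:**
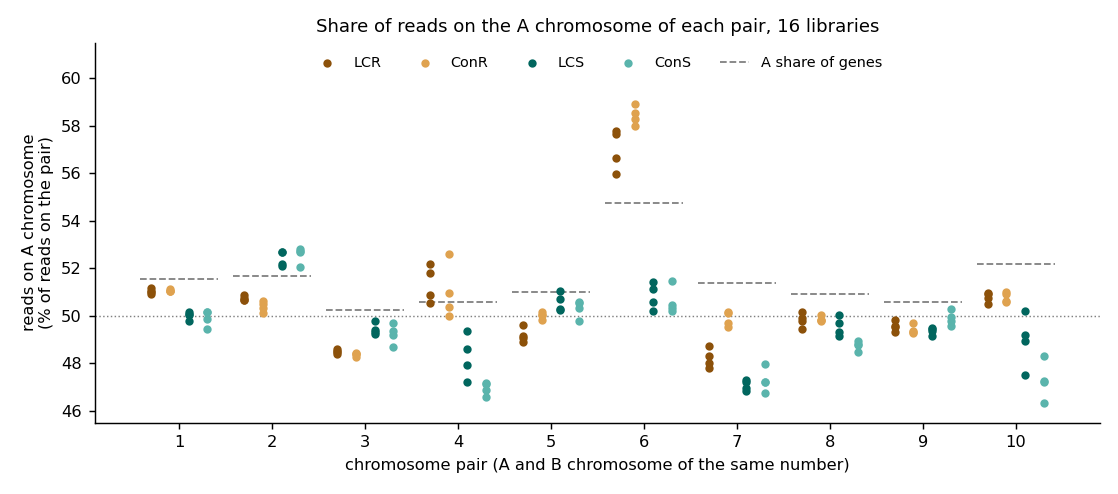
Reads on the A chromosome as a percent of the reads on each chromosome pair, 1 point per library and 1 colour per group (n = 4 each). Dashed lines give the A share of annotated genes of the pair and the dotted line marks 50%, and the y axis does not start at 0. Pair 6 shows the widest gap, with 8 root libraries from 56.0% to 58.9% and 8 shoot libraries from 50.2% to 51.5%.

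Of the 40 combinations of pair and comparison, 23 had no overlap between the groups, each with an exact permutation p of 0.0286 and an adjusted p of 0.0497 over the 40. By comparison these were 4 of 10 pairs in LCR vs ConR (1 with a higher and 3 with a lower A share in LCR), 3 in LCS vs ConS (2 higher and 1 lower in LCS), 8 for LCR vs LCS (5 higher and 3 lower in LCR) and 8 for ConR vs ConS (6 higher and 2 lower in ConR). The adjusted p is the same for all 23 and lies just under the threshold of 0.05. With limma on the log2 ratio of A to B reads, 3, 4, 8 and 9 pairs passed, with the comparisons in the order just given.

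Over all genes, chromosome pair 6 had the largest difference between tissues. The A share was 57.8%, 57.6%, 56.0% and 56.6% in LCR, against 50.2%, 51.4%, 50.6% and 51.1% in LCS. It was 58.5%, 58.0%, 58.9% and 58.3% in ConR, against 50.5%, 50.2%, 50.3% and 51.5% in ConS. The differences were 6.17 points for LCR minus LCS and 7.80 points for ConR minus ConS, and LCR lay 1.43 points below ConR without overlap. Chromosome 6A took 2.67% of the A and B reads in LCR against 2.04% in LCS, and 2.98% in ConR against 1.97% in ConS. Chromosome 6B took 2.02% against 1.97%, and 2.12% against 1.92%. The tissue gap thus lay mostly on 6A. In ConR vs ConS, 54.7% of tested 6A genes and 51.0% of 6B genes were called, and their median log2 fold changes were 0.36 and 0.22.

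Pair 2 moved the other way between tissues. Its A share was 50.9%, 50.7%, 50.7% and 50.7% in LCR, against 52.7%, 52.2%, 52.7% and 52.1% in LCS. It was 50.6%, 50.5%, 50.1% and 50.3% in ConR, against 52.7%, 52.8%, 52.7% and 52.1% in ConS. The differences were -1.68 points for LCR minus LCS and -2.18 points for ConR minus ConS. Both chromosomes took fewer reads in roots, 2A by -1.53 points and 2B by -0.87 points of all A and B reads in ConR minus ConS.

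Between calcium levels in roots, pair 7 had the largest fall. Its A share was 47.8%, 48.3%, 48.7% and 48.0% in LCR, against 49.5%, 49.7%, 50.1% and 50.1% in ConR. The difference of -1.65 points had no overlap. Chromosome 7B took 5.08% of the A and B reads in LCR and 4.61% in ConR, and 7A took 4.73% and 4.58%. The largest rise, in pair 4, was 0.37 points with overlap (exact permutation p = 0.60, adjusted p = 0.667). Its A share was 52.2%, 51.8%, 50.6% and 50.9% in LCR, against 51.0%, 50.4%, 52.6% and 49.998% in ConR.

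Between calcium levels in shoots, pair 10 had the largest rise and pair 9 the largest fall. The A share of pair 10 was 48.9%, 49.2%, 47.5% and 50.2% in LCS, against 47.3%, 47.2%, 48.3% and 46.3% in ConS. The difference of 1.67 points did not pass (exact permutation p = 0.0571, adjusted p = 0.0914), because LCS S7 lay below ConS S15. The A share of pair 9 was 49.5%, 49.4%, 49.4% and 49.1% in LCS, against 50.3%, 49.6%, 49.97% and 49.8% in ConS, a difference of -0.55 points without overlap. Both chromosomes of pair 9 took fewer reads in LCS, 4.54% on 9A and 4.66% on 9B, against 5.24% and 5.25% in ConS, with no overlap on either.

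In the other pairs, 1, 3, 4, 5 and 8, the differences stayed between -1.40 and 4.05 points. Pair 4 had a higher A share in LCR than LCS by 3.08 points, in ConR than ConS by 4.05 points and in LCS than ConS by 1.34 points, each without overlap. In pair 1 roots lay above shoots by 1.02 points (LCR minus LCS) and 1.16 points (ConR minus ConS), and in pair 3 by -0.94 and -0.87 points. The A share of pair 5 was lower in LCR than in ConR (-0.85 points) and than in LCS (-1.40 points). Pair 7 was higher in roots by 1.15 points (LCR minus LCS) and 2.57 points (ConR minus ConS), and pair 10 by 1.82 and 3.51 points, also without overlap. In pair 2 LCR lay 0.35 points above ConR. Pair 8 was higher by 0.79 points in LCS vs ConS and by 1.12 points in ConR vs ConS. In the 10 tests of whether the low calcium effect differed between shoots and roots, pairs 5 and 9 came nearest to the threshold, with 1.10 and -0.70 points (exact permutation over 4900 arrangements, adjusted p = 0.0531 each).

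Single abundant genes weighed on the pair shares. In pair 9, 1 gene of 9A took 6.97% of the reads of the pair in LCS and 12.2% in ConS, and without it LCS minus ConS was 2.63 points. In pair 7, 1 gene of 7B took 5.98% of the reads of the pair in LCR and 2.86% in ConR, and without it LCR minus ConR was -0.05 points. In pair 6, 1 gene of 6A took 8.14% of the reads of the pair in ConR and 0.034% in ConS, and without it ConR minus ConS was 4.14 points. Leaving out 1 gene, chosen to do so, reversed the sign of 27 of the 40 differences between groups. Of the 23 without overlap, 12 were reversed in this way. At most 4 genes were needed for any of the 40. In pair 1, LCR minus LCS was -0.09 points without 1 gene of 1B, and in pair 3 it was 0.47 points without 1 gene of 3A. All these genes were picked for their influence after their values were seen, and no identity is given for them.

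Without the 229 most abundant genes, pair 6 stood at -1.52 points for LCR minus LCS and -3.61 points for ConR minus ConS, opposite in sign to the sums over all genes. Pair 10 kept its direction between tissues, with 3.23 points for LCR minus LCS and 3.85 points for ConR minus ConS, as did pair 7 with 2.39 and 2.68 points and pair 2 with -0.95 and -0.76 points. However, with only 1 gene of 10B left out, pair 10 stood at -0.25 points for LCR minus LCS. Between LCR and ConR, pair 6 turned to 1.47 points without overlap, and pair 7 stood at -0.22 points with overlap. Other directions turned too. Pair 8 stood at -0.58 points for ConR minus ConS without overlap, pair 5 at 0.27 for LCR minus LCS with overlap and pair 9 at 0.46 for LCS minus ConS with overlap. The 3.08 points of pair 4 for LCR minus LCS shrank to 0.28, with overlap.

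In all, 18 of the 40 differences had the opposite sign without the 229 genes, and 7 of these were among the 23 without overlap. When the 10 most abundant genes of each of the 20 chromosomes were left out, 14 of 40 had the opposite sign, 6 of them among the 23. Many of the other reversed differences were small to begin with. Pairs without overlap numbered 2, 3, 6 and 8 without the 229 genes and 2, 5, 6 and 8 in the second setting (LCR vs ConR first, then LCS vs ConS, the tissues at low calcium and the tissues in control). No combination passed the adjusted threshold in either setting.

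**Figure D3:**
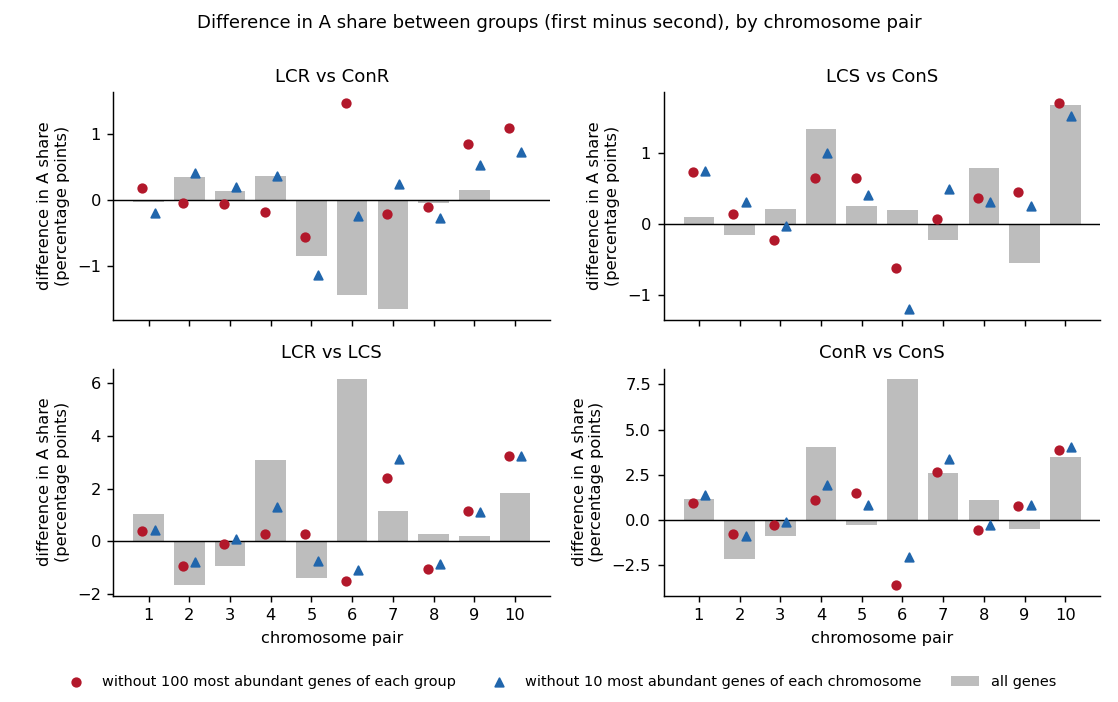
Difference in the A share of reads between the groups (first minus second, in percentage points) for the 10 chromosome pairs, with all genes (bars), without the 100 most abundant genes of each group (circles) and without the 10 most abundant genes of each chromosome (triangles). The y axes differ between panels. Pair 6 in ConR vs ConS stands at 7.80 points with all genes and at -3.61 and -2.03 points without the abundant ones, while pair 10 stands at 3.51, 3.85 and 4.02 points.

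Both chromosomes of a pair mostly changed in the same direction. Reads on each chromosome as a percent of all A and B reads changed in the same direction on the A and B chromosome of 8 of 10 pairs in ConR vs ConS and of 9 of 10 pairs in each other comparison. Groups did not overlap on 3 of the 20 chromosomes for LCR vs ConR, 6 for LCS vs ConS, 13 for LCR vs LCS and 17 for ConR vs ConS. Chromosome 1A took 8.68% of the reads in LCR and 7.12% in LCS, and 8.74% in ConR and 6.62% in ConS. Its partner 1B took 8.33% in LCR and 7.12% in LCS, and 8.37% in ConR and 6.64% in ConS. These percents sum to 100 within a library, so that a gain on 1 chromosome comes with a loss elsewhere.

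The percent of genes called was also set side by side for partner chromosomes. In LCS vs ConS it ran from 22.1% (6A) to 28.2% (3A) in subgenome A and from 23.1% (10B) to 28.4% (3B) in subgenome B. Across the 10 pairs the A and B percents went together there (Pearson r = 0.92, Spearman rho = 0.86, across chromosomes within 1 comparison and given as a description, since all chromosomes share the same libraries). The same r was 0.11 in LCR vs ConR, -0.12 for LCR vs LCS and 0.31 for ConR vs ConS. In LCR vs ConR the percent called ran from 2.83% (8A) to 4.21% (10A) and from 2.59% (8B) to 3.49% (6B), and A was higher in 7 of 10 pairs. The largest gap between partners was 3.8 points, in pair 7 in LCR vs LCS, with 41.8% on 7A and 45.6% on 7B.

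**Figure D4:**
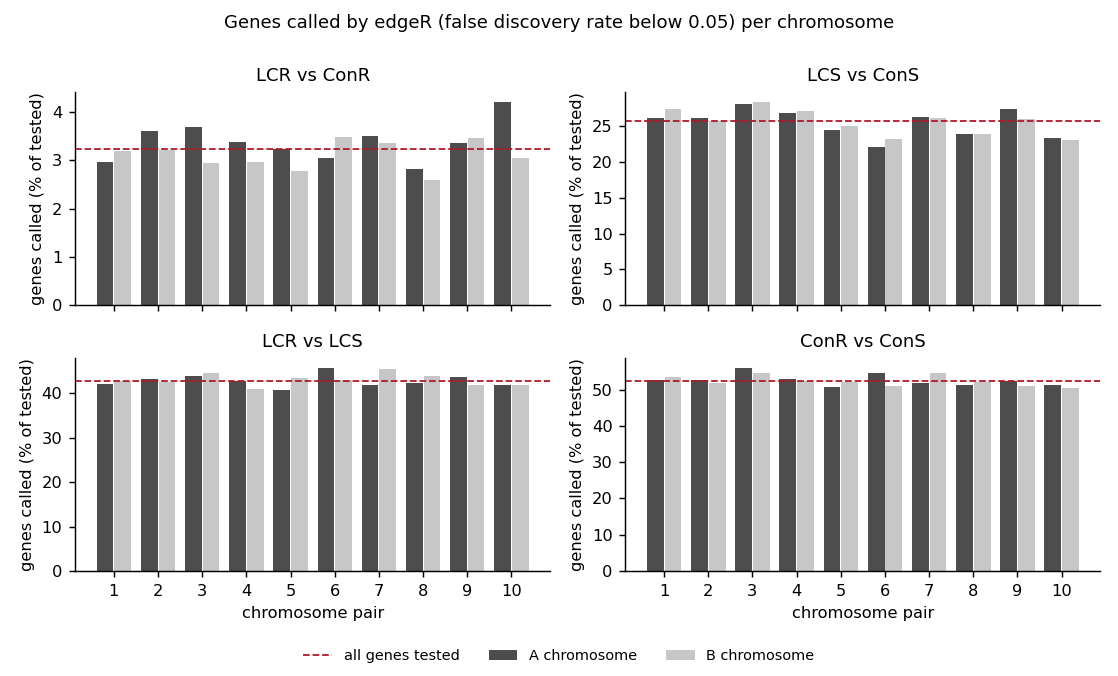
Percent of tested genes called by edgeR on the A chromosome (dark) and the B chromosome (light) of each pair, in 4 comparisons with different y axes that start at 0. The dashed line gives the percent over all genes tested (3.23%, 25.8%, 42.7% and 52.4%). In LCR vs ConR the bars run from 2.59% to 4.21%, and pair 3 has the highest bars in LCS vs ConS.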

How the data were processed

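The authors trimmed the 150 bp paired-end reads with sickle, aligned them to the tef genome V3.1 with hisat2 and counted them per gene with htseq-count (reverse strand, exons, union mode, mapping quality of at least 10). They deposited these counts as whole numbers without normalization. Reads that fit the A and B copy of a gene equally well are not counted uniquely, so near-identical homeologs are measured less completely, and how far this differs between subgenomes was not tested. By the study's group averages, reads mapped to multiple loci were a larger part of the input in roots than in shoots at both calcium levels. Whether this bears on the A share was not tested. The authors' own model, in DESeq2, had 1 term for the group.

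Shares are ratios of counts within a library and were compared by exact two-sided permutation tests with Benjamini-Hochberg adjustment (Python 3.11.15, scipy 1.17.1). Genes were tested with edgeR 4.0.16 in R 4.3.3 (TMM, 1 group term, all 16 libraries, genes counted in 4 or more libraries). The study's filter, which also names 4 replicate samples, can be read in other ways, and the study kept fewer genes. limma 3.58.1 and DESeq2 1.42.0 served as alternatives, beside other filters, thresholds, thinning to the smallest total and each library left out in turn. On simulated data with known changes the edgeR steps were checked first. The pairs given with every library value are, for each comparison, those with the largest rise and the largest fall in mean A share; no single gene is named. The members and comparisons were chosen with earlier results of these data known.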

Additional observations from a re-analysis of the deposited data

Results flagged for a closer look

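The low calcium effect in shoots minus that in roots passed the threshold in 2 of the 3 measures of balance, by a p that is exact only where calcium has no effect in either tissue. For the A share of reads the effect in shoots minus that in roots was 0.51 percentage points, and for the mean log2 level of A minus B genes it was 0.0093 on the log2 scale (exact permutation of the calcium labels within each tissue over 4900 arrangements, adjusted p = 0.0282 each). For the A share of detected genes it was -0.0265 points (exact permutation p = 0.730). Without the 229 most abundant genes the A share of reads gave 0.281 points (exact permutation p = 0.196), and with a prior count of 0.5 the mean log2 level gave 0.0103 (exact permutation p = 0.0543).

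Of 52 sets of 4 libraries examined, 2 held a library far from the other 3. Chance gives about 1 in 20, so 2 of 52 is no more than chance gives. The mean log2 level of A minus B was -0.0369 in LCR S3, and -0.0432 to -0.0423 in the other LCR libraries. The A share of pair 2 was 52.07% in ConS S16, and 52.70% to 52.81% in the other ConS libraries.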

How the results depend on the processing

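For the A share of reads, LCR minus ConR turned to 0.1094 points without the 100 most abundant genes of each group and to 0.0796 points without the 10 most abundant genes of each chromosome. Under these settings LCS minus ConS rose to 0.3905 and 0.4672 points. The tissue differences shrank, to 0.2979 and 0.5455 (LCR minus LCS) and 0.579 and 0.9331 points (ConR minus ConS). Each of these passed the threshold (adjusted exact permutation p = 0.0381). The tissue differences had the smallest p over all genes already, and their adjusted p fell because LCS vs ConS reached it too. Over only the genes not called in a comparison, LCS minus ConS turned to -0.04399 and LCR minus LCS to -0.2956 points, values given without a test because that choice of genes uses the same comparison. The settings on the 10 most abundant genes and on the genes not called were chosen after seeing the data.

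For the A share of detected genes, thinning to the smallest total gave 0.01034 (LCR minus ConR) and 0.009886 points (LCR minus LCS). At least 10 counts gave 0.02312, 0.02354, 0.08406 and 0.08448 points in the 4 comparisons, and at least 1 CPM gave 0.07159 (LCS minus ConS), 0.06204 (LCR minus LCS) and 0.2184 points (ConR minus ConS). For the mean log2 level, a prior count of 0.5 gave 0.001967 (LCS minus ConS), 0.01313 (LCR minus LCS) and 0.02346 (ConR minus ConS). None passed, with adjusted exact permutation p of 0.514, 0.0571 and 0.0571. With 1 library left out the mean log2 level ranged from 0.005071 to 0.006999, 0.0128 to 0.01494 and 0.02167 to 0.02482, and 3 libraries against 4 cannot give an exact permutation p under 0.0571.

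The low calcium effect in shoots minus that in roots was 0.2811 and 0.3876 points for the A share of reads without the abundant genes by the first and the second definition, and 0.01033 for the mean log2 level with a prior count of 0.5 (exact permutation p = 0.196, 0.129 and 0.0543). For the A share of detected genes it was 0.0004142 points at 10 counts and 0.1563 points at 1 CPM (exact permutation p = 0.994 and 0.0216), and with 1 library left out from -0.06132 to 0.0007001 points. These settings were applied to this difference after seeing the data.

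Without the abundant genes by either definition, 0 pairs passed the adjusted threshold in each comparison, since fewer than 23 combinations then reached the smallest p. Pairs without overlap numbered 2 in LCR vs ConR under both, and 5 in LCS vs ConS without the 10 most abundant genes of each chromosome.

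Calls in LCR vs ConR (A and B) were 534 and 491 after thinning, 1536 and 1391 with limma-voom, 2071 and 1933 with only its 8 libraries, and 2354 and 2237 with DESeq2; B calls were 556 when a log2 fold change of 1 or more in size was also required. With 1 library left out they ranged from 217 to 1827 in A and from 203 to 1709 in B. Calls in LCS vs ConS were 4722 and 4649 at that fold change, and with 1 library left out from 4774 (without LCS S8) to 8323 in A and from 4652 to 8195 in B. Interaction calls were 1015 and 958 after thinning, and 2626 and 2555 with DESeq2, and with 1 library left out from 1233 to 2576 in A and from 1152 to 2544 in B, both highest without LCS S7. The A share of these calls then ranged from 50.3% to 52.3%, the last without LCS S8. The cause of these shifts was not tested.

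No paired analysis was possible because the groups share no replicate numbers. Gene lengths and homeolog pairs were not used, so neither levels per length nor partners of single genes were compared, and 4 libraries per group limit the smallest exact p.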
